A study of Gallus gallus with 5 samples.

Results

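ENO1, LDHA, GAPDH and PGAM1 encode enzymes of glycolysis, and their RNA levels were read in 5 RNA-seq libraries of DT40, a line of chicken lymphoma B cells. These 4 genes were found through the RefSeq accessions of the deposited rows, 1 row each, among 16143 features, of which 10079 passed a filter on low counts and were tested. All 4 passed that filter. The 4 genes were chosen by their level and their difference between the groups in these same libraries, so those values are given as a description, without a test.

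The +dox group, also labelled CAP-H off, holds 2 libraries (replicates 1 and 3) of CAP-H KO cells given 100 ng/ml doxycycline. The -dox group, also labelled CAP-H on, holds 3 libraries (replicates 1, 2 and 3) of the same CAP-H KO cells without the drug, and the labels give a treatment time of 36 h. CAP-H is a subunit of condensin I, a complex that compacts chromosomes for mitosis, and the comparison asks how RNA levels differ when CAP-H is switched off. Every +dox library received doxycycline and no -dox library did, so an effect of the drug and an effect of losing CAP-H cannot be told apart. The labels do not say whether the line is a single clone, nor whether each replicate was a culture of its own, so a p-value measures the spread of these libraries and that spread may be technical.

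Glycolysis splits glucose into pyruvate in the cytosol and yields ATP and NADH, and dividing lymphoid cells run it at a high rate. GAPDH, glyceraldehyde-3-phosphate dehydrogenase, oxidises the triose phosphate and makes the NADH of the pathway. PGAM1, phosphoglycerate mutase, moves the phosphate of 3-phosphoglycerate, and ENO1, alpha-enolase, removes water to form phosphoenolpyruvate, from which pyruvate kinase makes pyruvate. LDHA, the A subunit of lactate dehydrogenase, interconverts pyruvate and lactate and so recycles NADH to NAD+.

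Total counts ran from 12199522 to 22533003 per library, and 11564042 to 21228020 counts remained once rows that were the same measurement had been reduced to 1. In the +dox libraries the 10 features with the most counts held 11.3% and 12.1% of the counts, against 6.46% to 6.63% in the -dox libraries. Markers of B cells were present, with 12 of 12 measured markers tested and a summed level of 1215 to 1275 CPM (counts scaled to the library total) in +dox libraries and 1739 to 1811 in -dox libraries. Of these 1 was higher and 7 were lower in +dox libraries, against 22.6% and 23.7% of all features tested. Macrophage and granulocyte markers summed to 32.6 and 33.0 CPM in the +dox libraries and to 81.0 to 86.6 in the -dox libraries, with 4 of 4 tested lower. T cell markers summed to 118 in the +dox libraries and 141 to 153 in the -dox libraries, and fibroblast markers to 30.3 and 32.4 in the +dox libraries and 31.9 to 37.3 in the -dox libraries. Erythroid and thrombocyte markers summed to 0.235 and 0.259 in the +dox libraries and 0.258 to 0.471 in the -dox libraries. GATA3, TAL1 and DCN, defining markers of T cells, erythroid cells and fibroblasts, stood at 1, the smallest deposited value, in all 5. Other markers of those lists were present. Their single values are CPM with library totals adjusted by the TMM method, as for the 4 genes below. They are not on the scale of the sums, so COL1A2 alone can exceed the sum of its list. CD3D had 100.4 and 99.0 CPM in the +dox libraries and 84.9 to 96.2 CPM in the -dox libraries. CD5 had 23.9 and 22.5 CPM in the +dox libraries and 42.7 to 47.7 CPM in the -dox libraries. COL1A2 had 31.7 and 34.0 CPM in the +dox libraries and 30.2 to 35.2 CPM in the -dox libraries. CD8A had 28 to 68 counts per library. The part of these marker differences in the results was not tested, and in bulk RNA fewer cells of a type and less RNA per cell cannot be told apart. The gene of CAP-H could not be used to check the labels, since 0 rows matched NCAPH, and the directions below rest on the labels as given. An unnamed RNA, XR_140315.1, took 1.45% and 1.52% of the counts in the +dox libraries and 0.0018% to 0.0020% in the -dox libraries.

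All 4 RNAs stood higher in the +dox than in the -dox libraries. The levels that follow are CPM with library totals adjusted by the TMM method so that the typical feature has no change between libraries, and they are not divided by gene length, so levels of different genes are not set against each other. ENO1 (NM_205120.1, galGal4 chromosome 21, 3215098 to 3227490) showed the largest difference of the 4. Its level was 8577 and 8851 CPM in +dox replicates 1 and 3, against 3696, 3983 and 4012 CPM in -dox replicates 1, 2 and 3. Both +dox libraries lay far above the highest -dox library, and the replicates of each group lay close together. ENO1 averaged 8714 ± 194 CPM in +dox libraries (SD, n = 2) and 3897 ± 175 CPM in -dox libraries (SD, n = 3), a log2 fold change of 1.16 (SE 0.03), which is 2.24-fold.

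LDHA (NM_205284.1, chromosome 5, 11936823 to 11942576) was close behind. The values were 1627 and 1632 CPM in the +dox replicates 1 and 3, against 799.0, 837.8 and 837.2 CPM in the -dox replicates 1, 2 and 3. The +dox libraries were nearly equal to each other and all -dox libraries lay far below them. LDHA averaged 1629 ± 4.07 CPM with doxycycline (SD, n = 2) and 825 ± 22.2 CPM without it (SD, n = 3), a log2 fold change of 0.98 (SE 0.04), or 1.98-fold.

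GAPDH (NM_204305.1, chromosome 1, 76433607 to 76437499), is often used to scale other genes on the assumption that its level is constant. It stood at 4771 and 5083 CPM in +dox replicates 1 and 3, against 2808, 2999.98 and 3125 CPM in -dox replicates 1, 2 and 3. The spread within each group was the widest of the 4 genes in relative terms, and the groups did not overlap. GAPDH averaged 4927 ± 221 CPM in +dox libraries (SD, n = 2) and 2978 ± 160 CPM in -dox libraries (SD, n = 3), a log2 fold change of 0.73 (SE 0.04), or 1.65-fold.

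PGAM1 (NM_001031556.1, chromosome 6, 21893396 to 21908597) had the smallest difference of the 4. It was read at 2582 and 2708 CPM in +dox replicates 1 and 3, against 1704, 1714 and 1795 CPM in -dox replicates 1, 2 and 3. The groups again did not overlap. PGAM1 averaged 2645 ± 89.0 CPM with doxycycline (SD, n = 2) and 1737 ± 50.2 CPM without it (SD, n = 3), a log2 fold change of 0.61 (SE 0.04), or 1.52-fold. For the 4 genes together, every +dox library lay above every -dox library, so the groups did not overlap in 4 of 4 genes. The groups did not overlap in 64.9% of all features tested, with every +dox library the higher in 32.1%, and nothing is read from the count of 4 because the difference helped choose the genes.

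**Figure D1:**
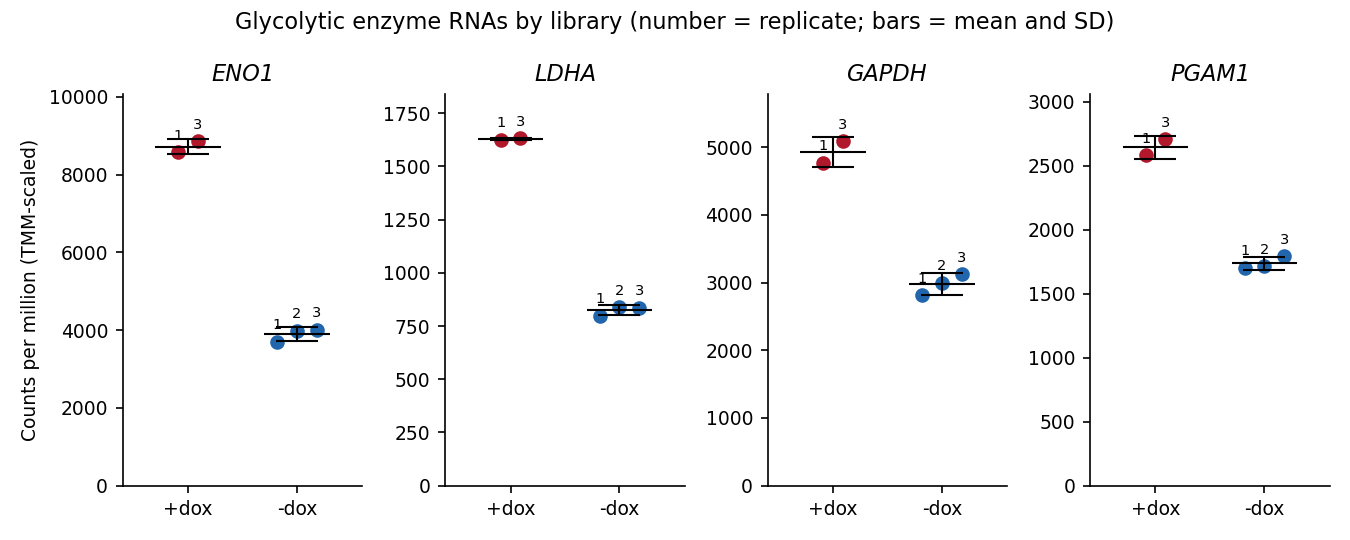
Level of each of the 4 enzyme RNAs in CPM (y axis, from 0) in the 2 +dox libraries (red, left) and the 3 -dox libraries (blue, right), with the replicate number at each point and the group mean and SD as black bars. ENO1 stands at 8577 and 8851 CPM in +dox libraries and at 3696 to 4012 CPM in -dox libraries, and the groups are apart in each of the 4 panels.

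The authors' deposited table lists all 4 genes among its 3798 called transcripts, where each count file holds 17036 rows. Nothing is read from that count, because the difference between the groups helped choose the genes. The authors' deposited table gives log2 fold changes of 1.08 for ENO1, 0.90 for LDHA, 0.64 for GAPDH and 0.50 for PGAM1 in its own comparison, the same order as above. The direction is not stated there, but 3479 of 3479 transcripts listed in the authors' deposited table and tested here have the sign of the +dox minus -dox change.

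The 4 RNAs made up a larger part of all counts in the +dox libraries. Together they took 1.63% and 1.69% of the counts in +dox replicates 1 and 3, against 0.960%, 0.994% and 1.02% in -dox replicates 1, 2 and 3. ENO1 took 0.795% of counts in +dox replicate 1 (exact Clopper-Pearson 95% interval 0.791% to 0.800%) and 0.819% in +dox replicate 3 (0.814% to 0.825%). In -dox replicates 1, 2 and 3 the share of ENO1 was 0.394% (0.391% to 0.397%), 0.415% (0.412% to 0.419%) and 0.418% (0.415% to 0.422%). These intervals cover counting error only, and the intervals of the +dox replicates did not overlap, nor did that of -dox replicate 1 with those of -dox replicates 2 and 3, while the intervals of -dox replicates 2 and 3 overlapped. By count, ENO1 was the feature of rank 7 in each of the 5 libraries, GAPDH of rank 12 in both +dox libraries and 10 to 12 in the -dox libraries, PGAM1 of rank 27 to 31 in the +dox libraries and 27 to 28 in the -dox libraries. LDHA had rank 66 and 70 in the +dox libraries and 118 to 122 in the -dox libraries. The ratio of the mean share in +dox libraries to that in -dox libraries was 1.97 for ENO1, 1.74 for LDHA, 1.46 for GAPDH and 1.34 for PGAM1.

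Ratios of counts within a library do not depend on the scaling, and they show that the 4 RNAs did not change by the same factor. ENO1 had 1.80 and 1.74 counts per count of GAPDH in the +dox libraries, against 1.28 to 1.33 in the -dox libraries. LDHA had 0.341 and 0.321 counts per GAPDH count in the +dox libraries, against 0.268 to 0.285 in the -dox libraries. Both ratios were higher in every +dox library than in any -dox library. As deposited, PGAM1 went the other way, with 0.541 and 0.533 counts per GAPDH count in the +dox libraries and 0.571 to 0.607 in the -dox libraries. Set against GAPDH in this way, the mean log2 ratio differed by 0.43 for ENO1, 0.26 for LDHA and -0.12 for PGAM1. The ratio of ENO1 to PGAM1, the enzymes of consecutive steps, was 3.32 and 3.27 in +dox libraries and 2.17 to 2.32 in -dox libraries.

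The count of PGAM1 may hold reads of other genes. The counter and its strand setting are not named, so how many such reads it holds is not known. The deposited span of PGAM1 encloses RRP12, a gene of ribosome processing (21896933 to 21905883), and overlaps the start of the span of ARHGAP19 (21907731 to 21926840), and most of it lies inside the unnamed XM_421715.3 (21895694 to 21960445). RRP12 and ARHGAP19 together had 97.9% and 98.7% of the count of XM_421715.3 in the +dox libraries and 98.8% to 99.2% in the -dox libraries, as when a read is counted for each span it falls in. RRP12 held as many counts as 8.50% and 8.76% of the PGAM1 count in the +dox libraries and 13.2% to 15.02% in the -dox libraries. Its level was 228 ± 12.6 CPM in +dox libraries (SD, n = 2) and 248 ± 9.75 CPM in -dox libraries (SD, n = 3), and it did not pass (-0.12, SE 0.07, adjusted p = 0.144 by edgeR's quasi-likelihood test).

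With those counts subtracted the difference in PGAM1 was larger. The subtraction is apt only as far as those reads were counted for PGAM1, which was not tested. Less the counts of RRP12, PGAM1 had 28020 and 26449 counts in +dox replicates 1 and 3, against 32765, 21404 and 18860 in the deeper -dox replicate 1 and in -dox replicates 2 and 3. The log2 fold change was then 0.70. Less the whole count of XM_421715.3, part of which lies outside PGAM1, it was 0.75, close to the 0.73 of GAPDH. The ratio of PGAM1 to GAPDH then no longer separated the groups. Less RRP12 it was 0.495 and 0.486 in the +dox libraries and 0.515, 0.487 and 0.498 in the -dox libraries, and less XM_421715.3 it was 0.472 and 0.464 in the +dox libraries and 0.476, 0.448 and 0.461 in the -dox libraries. Both subtractions were chosen after the data were seen.

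The 4 differences stood among many others. At an adjusted p of at most 0.05 (edgeR's quasi-likelihood test, Benjamini-Hochberg adjustment over all features), 4668 of the 10079 features changed, 46.3%, with 22.6% higher and 23.7% lower in +dox libraries. With TMM scaling abundant RNAs leaned upwards, though many were called lower too. The 305 features with a mean of at least 500 CPM held 159 higher (52.1%), 90 lower and 56 that did not pass. That floor was chosen after the values were seen. The median log2 fold change of these features was 0.16, against 0.00068 over all features. With library size in place of TMM scaling the median of all features moved to -0.18 and the calls to 1272 higher and 4119 lower, so directions are relative to the typical feature. The log2 fold changes were then 0.98 for ENO1, 0.80 for LDHA, 0.55 for GAPDH and 0.43 for PGAM1.

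**Figure D2:**
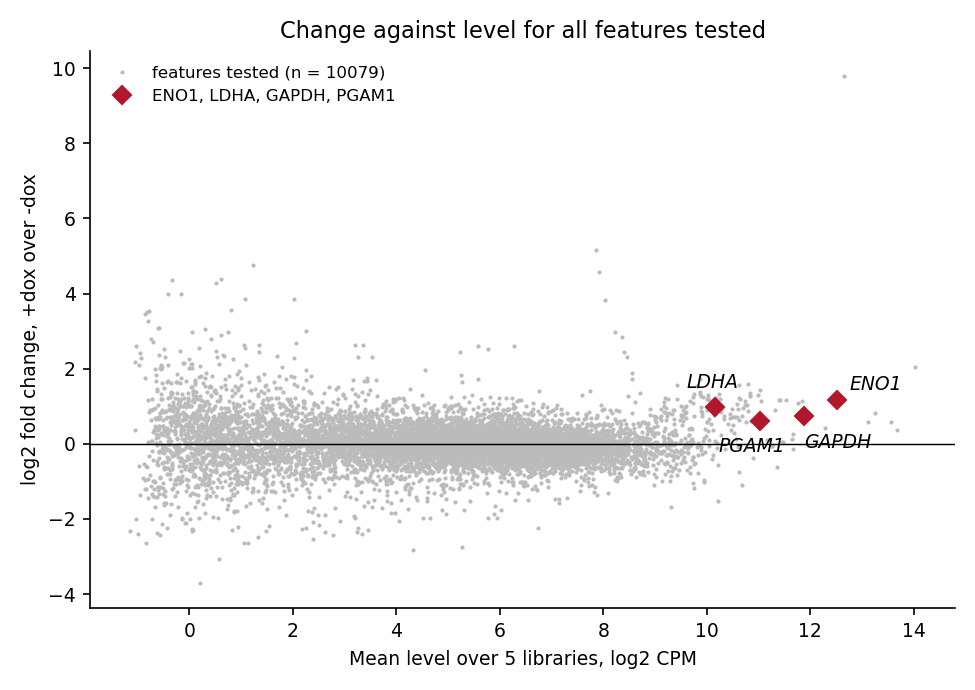
Log2 fold change of +dox over -dox libraries (y axis) against the mean level over the 5 libraries in log2 CPM (x axis) for the 10079 features tested (grey points), with ENO1, LDHA, GAPDH and PGAM1 as red diamonds. The 4 enzyme genes lie at the abundant end, at log2 fold changes of 0.61 to 1.16, and the single feature near the top right is XR_140315.1.

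The other enzymes of glycolysis were mixed. Of 26 further symbols listed, 13 had a feature and 11 were tested, of which 4 were higher and 2 lower in +dox libraries and 5 did not pass, with a median log2 fold change of 0.080. Over all features tested 22.6% were higher, with a median of 0.00068. With library size alone 2 of the 11, HK3 and ENO2, were higher and 6 lower, and by DESeq2 3 were higher and 4 lower. Over all features library size alone gave 1272 higher and 4119 lower of 10079. DESeq2 gave 1191 higher and 3046 lower of 11135. The sign of the list's median turned with library size alone (-0.10), by DESeq2 (-0.052), with a replicate block (-0.038), without +dox replicate 3 (-0.066) and without -dox replicate 2 (-0.037). The phosphofructokinase genes PFKL, PFKM and PFKP were among the symbols listed, but no feature matched them by symbol.

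In the preparatory steps, HK1 and GPI fell. HK1, a hexokinase, which traps glucose as glucose-6-phosphate, had 163 and 169.8 CPM in +dox replicates 1 and 3, against 218, 232 and 219 CPM in -dox replicates 1, 2 and 3 (log2 fold change -0.42, SE 0.07, adjusted p = 6.98e-05, edgeR). GPI, glucose-6-phosphate isomerase, had 582 and 568 CPM in +dox libraries, against 712, 759.7 and 735 CPM in -dox libraries (-0.36, SE 0.05, adjusted p = 3.4e-05, edgeR). In both genes every +dox library lay below every -dox library. HK3, another hexokinase, rose at a low level, with 4.89 and 5.23 CPM in +dox libraries and 2.15 to 2.66 CPM in -dox libraries (1.05, SE 0.25, adjusted p = 0.00319, edgeR), from 26 to 58 counts per library.

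Around the splitting of the hexose, ALDOC and TPI1 rose by small amounts. ALDOC, an aldolase, averaged 887 ± 76.4 CPM in +dox libraries (SD, n = 2) and 759.6 ± 18.4 CPM in -dox libraries (SD, n = 3), which was 0.22 on the log2 scale (SE 0.05, adjusted p = 0.0032, edgeR). TPI1, triose phosphate isomerase, averaged 602 ± 17.0 CPM in +dox libraries and 489 ± 5.80 CPM in -dox libraries (0.30, SE 0.05, adjusted p = 0.000219, edgeR). ALDOC lost its call without +dox replicate 3 (0.14, adjusted p = 0.107) and by DESeq2 (0.087, adjusted p = 0.361), and with library size alone both lost it (0.042, adjusted p = 0.512, and 0.12, adjusted p = 0.051).

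The steps that lie between GAPDH and LDHA were uneven. The row named PGK2, for which the RefSeq table gives the synonym PGK1, is the phosphoglycerate kinase that follows GAPDH. It averaged 870 ± 12.2 CPM in +dox libraries (SD, n = 2) and 923 ± 37.9 CPM in -dox libraries (SD, n = 3) and did not pass (-0.08, SE 0.05, adjusted p = 0.161, edgeR). The row named PKLR, with the synonym PKM, is the pyruvate kinase that follows ENO1. It averaged 2387 ± 165 CPM in +dox libraries and 2472 ± 59.5 CPM in -dox libraries and did not pass either (-0.05, SE 0.04, adjusted p = 0.31, edgeR). Both passed as lower with library size alone (-0.27 and -0.23) and by DESeq2 (-0.22 and -0.19). The PKLR row overlaps an unnamed feature, so its reads may not be fully its own. BPGM, which makes and degrades 2,3-bisphosphoglycerate, stood at -0.13 on the log2 scale (SE 0.08, adjusted p = 0.23) and passed as lower with library size alone (-0.31).

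Paralogues of the enzymes differed in level and in change. ENO2, the neuronal-type enolase in mammals, rose from few counts, with 77 and 103 counts in +dox replicates 1 and 3, against 75, 48 and 27 in -dox replicates 1, 2 and 3 (log2 fold change 1.42, SE 0.25, adjusted p = 0.000236, edgeR). ENO1 had 920 to 1321 counts for each count of ENO2 in the +dox libraries and 1115 to 1799 in the -dox libraries, ranges that overlap. ENO4 had 19 to 58 counts per library and did not pass (0.11, SE 0.36, adjusted p = 0.83). LDHB, the B subunit of lactate dehydrogenase, averaged 1180 ± 40.5 CPM in +dox libraries (SD, n = 2) and 1116 ± 27.6 CPM in -dox libraries (SD, n = 3) and did not pass (0.08, SE 0.04, adjusted p = 0.136, edgeR), and its sign turned with library size alone (-0.10, adjusted p = 0.0331).

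The ratio of the lactate dehydrogenase subunits shifted towards LDHA in the +dox libraries. LDHA had 1.35 and 1.42 counts per count of LDHB in the +dox libraries, against 0.732, 0.755 and 0.730 in -dox replicates 1, 2 and 3. Lactate dehydrogenase is a tetramer of these subunits. The ratio of ENO1 to the PKLR row was 3.78 and 3.54 in the +dox libraries and 1.54 to 1.61 in the -dox libraries, and that of GAPDH to the PGK2 row was 5.43 and 5.90 in the +dox libraries and 3.15 to 3.29 in the -dox libraries. These ratios use the differences that chose the 4 genes and are not tested.

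**Figure D3:**
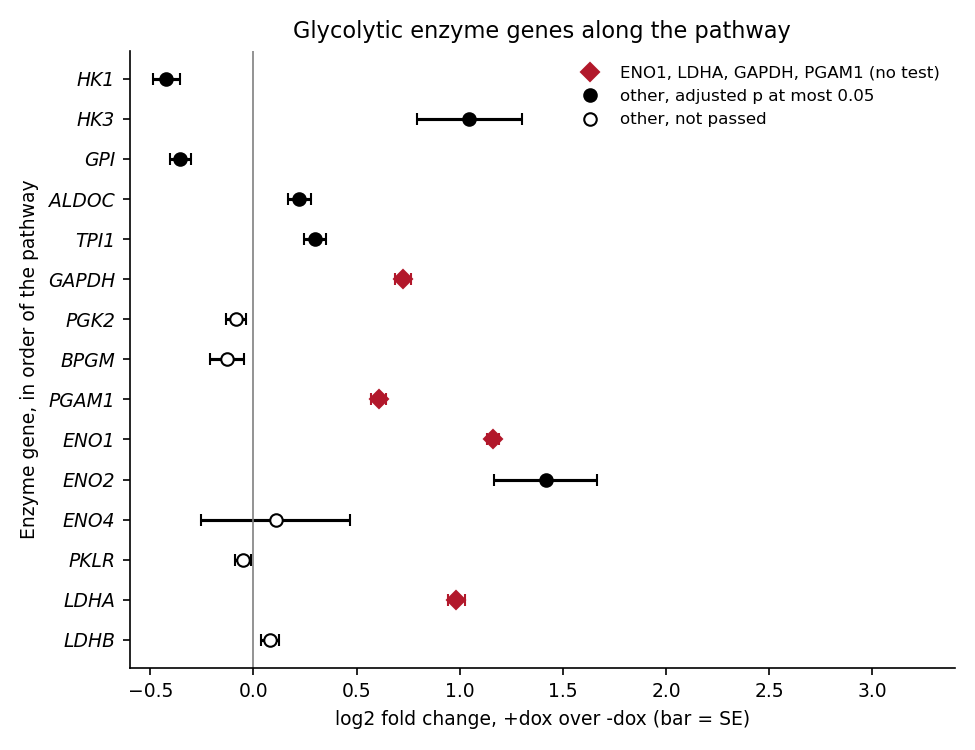
Log2 fold change of +dox over -dox libraries with its SE (x axis) for the 15 glycolytic enzyme genes with a value, in the order of the pathway (y axis, hexokinases at the top). Red diamonds are ENO1, LDHA, GAPDH and PGAM1, filled circles passed at an adjusted p of at most 0.05 and open circles did not: the PGK2 and PKLR rows, at -0.08 and -0.05, lie between the diamonds.

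Genes of glucose and lactate transport were mixed. Beside the counts of this list and of those below stand 22.6% higher and 23.7% lower over all features tested. Beside their counts with library size alone stand 1272 higher and 4119 lower of all 10079 features. Of 14 listed genes 11 had a feature and 6 were tested, with 1 higher, 2 lower and 3 that did not pass, and a median of -0.07 (-0.26 to 0.11 over the alternatives, with 1 higher and 4 lower with library size alone). SLC2A1, the glucose transporter GLUT1, fell to 22.3 and 24.8 CPM in the +dox libraries, against 31.4 to 33.4 CPM in the -dox libraries (-0.47, SE 0.10, adjusted p = 0.00118, edgeR). SLC16A1, the monocarboxylate transporter MCT1, which carries lactate, fell to 396 ± 28.9 CPM (SD, n = 2), against 483 ± 16.9 CPM in -dox libraries (SD, n = 3; -0.29, SE 0.06, adjusted p = 0.00129, edgeR). BSG, basigin, the chaperone that brings MCT1 to the surface in mammals, rose to 161 ± 3.78 CPM, against 122 ± 3.55 CPM in -dox libraries (0.40, SE 0.05, adjusted p = 1.17e-05, edgeR).

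Regulators of the pathway were mixed as well. Of 29 listed genes 17 had a feature and 13 were tested, with 3 higher, 3 lower and 7 that did not pass, and a median of -0.09 (-0.27 to 0.067 over the alternatives, with 2 higher and 7 lower with library size alone). MYC, a transcription factor that acts on LDHA and ENO1 in mammals, fell to 709.8 ± 33.7 CPM in +dox libraries (SD, n = 2), against 830 ± 23.5 CPM in -dox libraries (SD, n = 3; -0.23, SE 0.05, adjusted p = 0.00162, edgeR). HIF1A, the oxygen-regulated factor that acts on most genes of glycolysis in mammals, fell to 34.7 ± 3.07 CPM, against 44.8 ± 1.89 CPM in -dox libraries (-0.36, SE 0.09, adjusted p = 0.00246, edgeR). MLX, a partner of the glucose-sensing factors MondoA and ChREBP, rose to 337 ± 18.4 CPM, against 243 ± 12.5 CPM in -dox libraries (0.47, SE 0.07, adjusted p = 2.86e-05, edgeR), with a span that overlaps HSD17B1. EGLN3, a prolyl hydroxylase of the oxygen response, passed as higher (adjusted p = 0.00513, edgeR) on 12 and 11 counts in the +dox libraries, against 6, 1 and 3 in -dox replicates 1, 2 and 3.

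Genes outside glycolysis that are known to respond to low oxygen gave 4 higher, 1 lower and 4 that did not pass among 9 tested of 21 listed. Over all features tested 22.6% were higher and 23.7% lower. The list's median was 0.14 (-0.037 to 0.31 over the alternatives, with 1 higher and 3 lower with library size alone). PLOD1, a collagen lysyl hydroxylase, rose to 75.4 ± 3.64 CPM in +dox libraries (SD, n = 2), against 39.7 ± 1.52 CPM in -dox libraries (SD, n = 3; 0.93, SE 0.07, adjusted p = 2.94e-08, edgeR). BNIP3, which marks mitochondria for removal, rose by 0.31 (SE 0.07, adjusted p = 0.00188) and CA12, a carbonic anhydrase, by 0.83 (SE 0.27, adjusted p = 0.0204, edgeR), and both lost the call with library size alone (0.13 and 0.65) and by DESeq2 (0.18 and 0.69). CA12 also lost it without +dox replicate 3 (0.57, adjusted p = 0.235), and its value ran from 0.57 to 1.06 over the libraries left out. The counts of CA12 were 47 and 60 in +dox replicates 1 and 3, against 58, 46 and 28 in -dox replicates 1, 2 and 3. KDM3A, a histone demethylase, fell to 92.6 ± 1.89 CPM, against 135 ± 5.32 CPM in -dox libraries (-0.55, SE 0.05, adjusted p = 7.43e-07, edgeR). VEGFA, named after its values were seen, stood at 1 in all 5 libraries.

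Downstream of pyruvate, the list of pyruvate entry and the citric acid cycle had 8 higher, 4 lower and 7 that did not pass among 19 tested of 29 listed, with a median of 0.14 (-0.040 to 0.20 over the alternatives, with 4 higher and 7 lower with library size alone). Over all features tested 22.6% were higher and 23.7% lower. The row named MPC1L, with the synonym MPC1, a subunit of the mitochondrial pyruvate carrier, rose by 0.55 (SE 0.06). PDHB, a subunit of pyruvate dehydrogenase, rose by 0.44 (SE 0.06), and SDHD, a subunit of succinate dehydrogenase, by 0.37 (SE 0.06). The 4 lower genes were DLD (-0.25), IDH2 (-0.25), FH (-0.17) and MDH2 (-0.23), named after their values were seen. In the shuttles that carry the electrons of cytosolic NADH into mitochondria, 1 of 4 tested genes was higher and 1 lower, and the median was -0.0057 (-0.19 to 0.014 over the alternatives, with 1 higher and 3 lower with library size alone). GOT1, the cytosolic aspartate aminotransferase, rose to 105 and 119 CPM, against 55.8 to 57.4 CPM in -dox libraries (0.98, SE 0.06, adjusted p = 3.96e-09, edgeR), about as much as LDHA. SLC25A13, the mitochondrial aspartate-glutamate carrier, fell to 273 ± 19.0 CPM (SD, n = 2), against 337 ± 2.38 CPM in -dox libraries (SD, n = 3; -0.30, SE 0.06, adjusted p = 0.00112, edgeR).

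Branches that leave glycolysis above ENO1 differed from each other. The branch to serine, which leaves at 3-phosphoglycerate, the substrate of PGAM1, had 0 higher, 2 lower and 1 that did not pass among 3 tested, with a median of -1.30 (0 higher and 3 lower with library size alone). With so few genes the median is not firm: it was -0.12 where overlapping features, PSPH among them, were left out, with 1 higher and 1 lower. It was -0.63 without +dox replicate 1, -0.78 without +dox replicate 3 and -0.70 without -dox replicate 3, where 4 genes were tested. PHGDH, named after its values were seen, did not pass the filter on low counts and leaned the other way. It had 10 and 17 counts in +dox replicates 1 and 3, against 8, 3 and 1 in -dox replicates 1, 2 and 3. PSAT1 fell to 28.5 and 28.6 CPM in the +dox libraries, against 66.1, 69.7 and 75.9 CPM in the -dox libraries (-1.30, SE 0.08, adjusted p = 3.74e-09, edgeR). PSPH fell by 1.31 on the log2 scale (SE 0.06), although its span overlaps an unnamed feature. The falls of PSAT1 and PSPH, members of the stress response controlled by ATF4, were known before this list was made and are no independent observation. In the pentose phosphate pathway 2 of 6 tested genes were higher and 0 lower, with a median of 0.064 (-0.12 to 0.081 over the alternatives, with 1 higher and 2 lower with library size alone). TKTL1, a transketolase, rose by 0.21 (SE 0.06, adjusted p = 0.0152) and PRPS2, which makes phosphoribosyl pyrophosphate, by 0.95 (SE 0.23, adjusted p = 0.00344, edgeR) at 5.79 to 5.99 CPM in +dox libraries and 2.89 to 3.35 CPM in -dox libraries. TKTL1 lost its call without -dox replicate 1 (0.15, adjusted p = 0.0549) and without +dox replicate 1 (0.18, adjusted p = 0.0552), with no filter on low counts (0.17), with library size alone (0.028) and by DESeq2 (0.076).

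In the glycogen and hexosamine branches 5 of 12 tested genes were higher and 2 lower, against 22.6% and 23.7% of all features tested. The median was 0.16 (-0.018 to 0.19 over the alternatives, with 2 higher and 3 lower with library size alone). GFPT1, which opens the hexosamine pathway, fell to 235 ± 7.03 CPM in +dox libraries (SD, n = 2), against 322 ± 8.02 CPM in -dox libraries (SD, n = 3; -0.45, SE 0.06, adjusted p = 2.19e-05, edgeR). UAP1 (0.45, SE 0.09, adjusted p = 0.000651) and GNPNAT1 (0.28, SE 0.07, adjusted p = 0.00342), of the same pathway, rose, as did PYGL, a glycogen phosphorylase (0.41, SE 0.09, adjusted p = 0.0018, edgeR). GNPNAT1 lost its call with library size alone (0.10) and by DESeq2 (0.15, adjusted p = 0.293). PYGL, whose span overlaps ABHD12B, lost it without +dox replicate 3 (0.24, adjusted p = 0.0728) and by DESeq2 (0.27, adjusted p = 0.0617). Of gluconeogenesis 2 of 9 listed genes were tested, with 1 higher and 0 lower, also with library size alone: FBP2, a fructose-bisphosphatase, rose to 82 and 59 counts in the +dox libraries, against 28, 18 and 15 in the -dox libraries (2.33, SE 0.28, adjusted p = 5.16e-06, edgeR), and G6PC2, the other tested gene, did not pass (0.30, SE 0.26, adjusted p = 0.363).

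**Figure D4:**
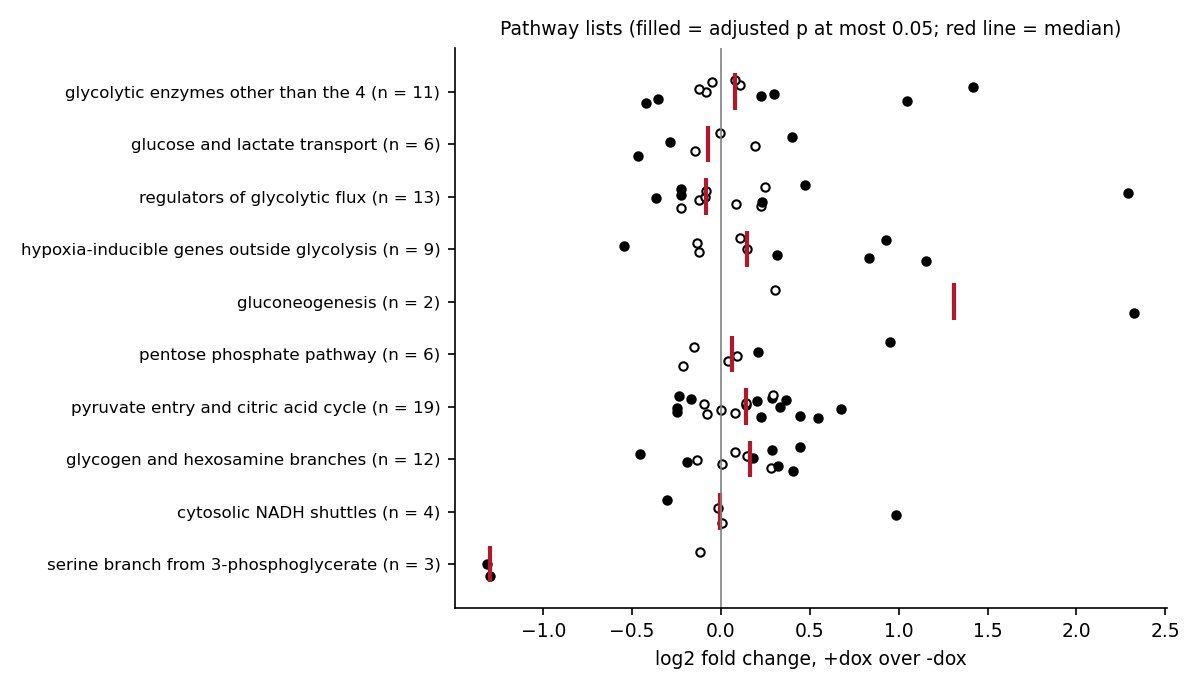
Log2 fold change of +dox over -dox libraries (x axis) for the tested genes of the 10 pathway lists (y axis, n tested in brackets), filled where the adjusted p was at most 0.05 and open where not, with the list median as a red line. The list of other glycolytic enzymes has a median of 0.080, and its values run from HK1 at -0.42 to ENO2 at 1.42.

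The 4 genes lie on 4 chromosomes, and their neighbours were mixed. Within 25 kb of the 4 spans lay 17 features, 15 of them tested, with 3 higher, 3 lower and 9 that did not pass and a median of -0.04. Of all features tested 22.6% were higher and 23.7% lower. Near ENO1 the tested neighbours were GPR157, a G protein-coupled receptor gene, which fell to 2.43 and 2.70 CPM in +dox libraries, against 4.13 to 5.60 CPM in -dox libraries (-0.85, SE 0.27, adjusted p = 0.0191, edgeR), and XM_417596.3, which did not pass (0.30, SE 0.29). CA6, 3555 bases from ENO1, had 1 to 9 counts per library and was not tested. GPR157 lost its call without -dox replicate 2 (-0.70, adjusted p = 0.0705) and without +dox replicate 3 (-0.77, adjusted p = 0.0865).

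Near LDHA, GTF2H1, a subunit of the transcription factor TFIIH, fell to 49.99 ± 2.65 CPM in +dox libraries (SD, n = 2), against 62.9 ± 2.16 CPM in -dox libraries (SD, n = 3; -0.33, SE 0.07, adjusted p = 0.000969, edgeR). The unnamed XM_003641342.1, which begins 576 bases beyond LDHA, rose by 0.22 (SE 0.07, adjusted p = 0.0247, edgeR), a call that depended on the settings. It was lost with library size alone (0.038, adjusted p = 0.699), by DESeq2 (0.083, adjusted p = 0.611), with no filter on low counts (adjusted p = 0.0816), and without -dox replicate 1 (adjusted p = 0.0848), -dox replicate 3 (0.062), +dox replicate 1 (0.136) or +dox replicate 3 (0.0501). Further out, SPTY2D1, 31617 bases from LDHA and named after its values were seen, fell by 0.99 on the log2 scale (adjusted p = 2.97e-08, edgeR).

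Near GAPDH a neighbour rose more than GAPDH did. NCAPD2, the gene of the condensin I subunit CAP-D2, lies 8233 bases away and stood at 844 and 870.0 CPM in +dox replicates 1 and 3, against 375, 412 and 393 CPM in -dox replicates 1, 2 and 3 (1.12, SE 0.05, adjusted p = 2.07e-10, edgeR). CNP1, which lies in between at 1881 bases from GAPDH, had 2 to 24 counts per library and did not pass (0.05, SE 0.75, adjusted p = 0.964). On the other side XM_416501.3, at 10234 bases, did not pass (-0.12, SE 0.08, adjusted p = 0.243), but was lower with library size alone (-0.30, adjusted p = 0.0044). Within 100 kb of GAPDH 5 of 13 tested features were higher and 3 lower, against 22.6% and 23.7% of all features tested, and all 5 of the higher ones lay on the side of NCAPD2. Most of the 13 lay on that side, among them features that did not pass. KPNA1, also on that side and named after its values were seen, was lower (-0.26, adjusted p = 0.00477, edgeR). The other lower features lay on the opposite side. MRPL51, a mitochondrial ribosomal protein gene at 32070 bases, rose by 1.04, and VAMP1, SCNN1A and XM_003640440.1 by 0.54, 0.48 and 0.51, features named after their values were seen. The spans of SCNN1A and XM_003640440.1 overlap, so their counts may share reads.

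Around PGAM1, 7 features were tested, of which 1 was higher, 1 lower and 5 did not pass. The higher one, XM_003641486.1, lies 358 bases from PGAM1 and rose by 0.29 (SE 0.08, adjusted p = 0.00556, edgeR), a call lost with library size alone (0.11, adjusted p = 0.219) and by DESeq2 (0.16, adjusted p = 0.238). The lower one, XM_421710.3, also fell (-0.26, SE 0.05, adjusted p = 0.000943, edgeR). The 3 features that overlap PGAM1 had log2 fold changes of -0.12 for RRP12, -0.06 for ARHGAP19 and -0.09 for XM_421715.3, none of which passed. With library size alone all 3 passed as lower (-0.30 for RRP12, -0.24 for ARHGAP19 and -0.27 for XM_421715.3). RRP12 and XM_421715.3 also passed as lower by DESeq2 (-0.26 and -0.23), and RRP12 without +dox replicate 3 (-0.18, adjusted p = 0.0435).

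**Figure D5:**
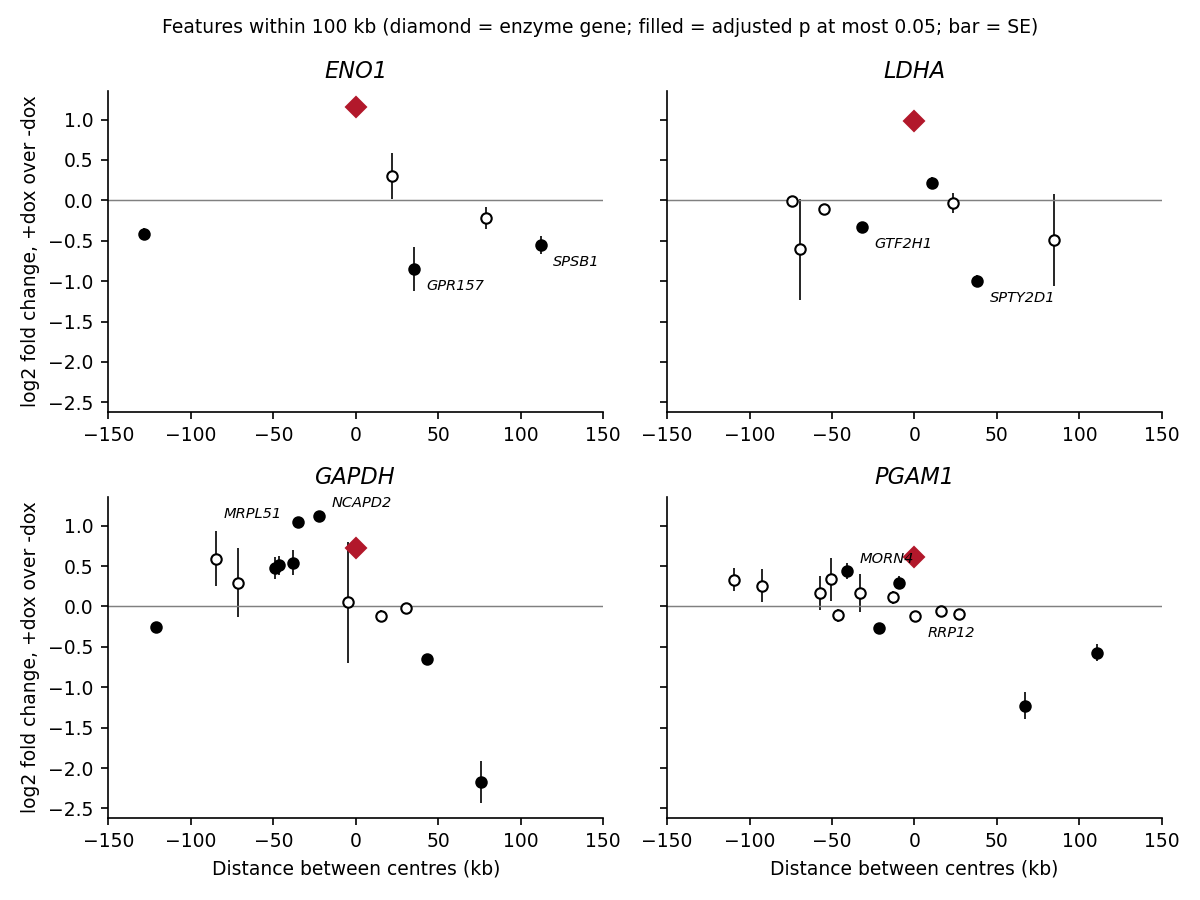
Log2 fold change of +dox over -dox libraries with its SE (y axis) for the tested features within 100 kb of each enzyme gene, against the distance between the centres of the spans in kb (x axis). Red diamonds are the enzyme genes, filled circles passed at an adjusted p of at most 0.05 and open circles did not: in the GAPDH panel NCAPD2, at 1.12, and MRPL51, at 1.04, lie above GAPDH at 0.73.

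The genes whose profile over the 5 libraries was most like that of each enzyme gene came from several families. Likeness was the root mean square difference of log2 CPM over the 5 libraries, each gene centred on its own mean, among 2459 or 2460 other named genes that averaged 50 CPM or more and overlap no other feature. The 5 libraries fall into the 2 groups compared, so genes with a like difference between them are alike by this measure, which is given as a description. For ENO1 the 3 nearest were RPL7A (0.021) and RPS16 (0.030), both of the cytosolic ribosome, and NCAPD2 (0.031). For LDHA they were PTDSS1, a phosphatidylserine synthase (0.032), MRPL51 (0.032) and ATP5I, of ATP synthase (0.035). GAPDH was nearest to RPL22, of the ribosome (0.013), TMSB15B, a thymosin (0.014), and HIST1H2B7L4, a histone (0.015), and PGAM1 to NDUFS5, of respiratory complex I (0.024), LOC420411 (0.026) and EIF3M, a translation initiation factor subunit (0.027). Among the 4 enzyme genes the difference was 0.067 between GAPDH and PGAM1, 0.090 between ENO1 and LDHA, and 0.13 to 0.27 between the other pairs. These exceed the values above, but the genes above were picked as the closest of 2459 or 2460, so nothing is read from that. The values of PGAM1 use its counts as deposited, with any reads of RRP12 that they hold.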

How the data were processed

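Total RNA of 5 DT40 libraries was made into Illumina libraries, per the labels' protocols. In each deposited file 17036 rows hold whole-number counts for RefSeq transcripts with their galGal4 spans. The submitters' processing notes name galGal4, TopHat2 2.0.8b, Bowtie, FastQC and edgeR 3.2.3, without roles. No source used here names the counter or its strand setting, so reads of antisense partners cannot be told apart. The smallest deposited count is 1, taken as no reads. The authors' deposited table holds p-values beside log2 fold changes and log2 mean CPM. The likelihood ratio score in the authors' deposited table was not used.

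Rows with the same identifier or interval and equal counts were reduced to 1. Of the remaining features 2095 (13.0%) overlap another, and in 0 of 123 nested pairs with at least 500 inner counts did the outer feature hold fewer counts, so a read was taken to count for each span it overlaps. Symbols came from the RefSeq table of GRCg7b by accession without version (8905 rows, 52.3%), and list symbols also by synonym. PC, ALAS2, BLNK and HBG2, synonyms of other genes there, were left unmatched. No promoter or protein sequence was used here.

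The test was that of edgeR 4.0.16 under R 4.3.3 (filterByExpr, TMM, glmQLFit and glmQLFTest, no covariates, Benjamini-Hochberg adjustment, threshold 0.05). TMM factors were 0.928 and 0.927 in +dox libraries and 1.07, 1.04 and 1.04 in -dox libraries. The SE is the log2 fold change over the square root of F. On simulated counts for the 10079 features with 200 changed, 88% of the changes of log2 1 were found and 70% of those of log2 0.5, with 4.82% false calls. In the data 46.3% of features were called. The simulation changed far fewer, evenly up and down, so its share of false calls does not carry over to the data. Replicates differed by 3.32 to 11.3 times the sampling noise (chi-square over degrees of freedom), so none was a repeat deposit. The genes and lists were chosen with earlier results of these data known. Named are the 4 genes, each tested glycolytic enzyme, up to 4 called genes of lowest p per other list, features within 25 kb and the 3 most alike genes per enzyme gene. Alternatives were library size alone, DESeq2 1.42.0 and its size factors, no filter, a replicate block, all rows, no overlapping features and each library left out. Some genes that the naming rule picks are not reported here.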

Additional observations from a re-analysis of the deposited data

How the results depend on the processing

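With library size alone the log2 fold changes were 0.98 for ENO1, 0.80 for LDHA, 0.55 for GAPDH and 0.43 for PGAM1, and by DESeq2, fitted over all 16143 features, they were 1.03, 0.85, 0.59 and 0.47. Their direction and order were the same under every alternative that left the counts as deposited, although PGAM1 has no value where overlapping features were left out. Less the counts of RRP12 or of XM_421715.3, alternatives added after the data were seen, PGAM1 came to 0.70 and 0.75. Leaving out each library in turn gave 1.13 to 1.18 for ENO1, 0.96 to 0.99 for LDHA, 0.68 to 0.77 for GAPDH and 0.58 to 0.64 for PGAM1. With the 10 most abundant features out of the total, the share ratios were 2.09 for ENO1, 1.85 for LDHA and 1.42 for PGAM1, and GAPDH at 1.55 moved by less than the spread between replicates. ENO1 is itself among those 10 in the 5 libraries, and GAPDH is among them in -dox replicate 3 alone.

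Of all features 4668 changed, against 5391 with library size alone, 4237 by DESeq2 (1191 higher and 3046 lower) and 3839 to 4448 without a library. With library size alone 5 transport genes and 4 shuttle genes passed, and LDHB turned to -0.10. By DESeq2 3 hypoxia-inducible genes (1 higher and 2 lower) and 3 glycogen and hexosamine genes (1 higher and 2 lower) passed. So did 4 serine genes (1 higher and 3 lower). With the size factors of DESeq2 in edgeR, over the 10079 features tested, 2305 were higher and 2343 lower. ENO1 then came to 1.17 and PGAM1 to 0.61, and all 63 other named genes had the same call. By DESeq2 itself, fitted over all 16143 features, ENO1 was 1.03 and PGAM1 0.47. DESeq2 itself differs from the main test in scale and in method. The part of each in the calls lost or gained was not tested. Without a library, the calls were 5 to 6 for the other glycolytic enzymes, 4 to 6 for regulators, 3 to 5 for hypoxia-inducible genes, 1 to 2 for pentose phosphate genes, 10 to 12 for the citric acid cycle, 3 to 6 for glycogen and hexosamine genes, and 2 to 3 for serine genes. The lowest values came without +dox replicate 3 for the hypoxia and glycogen lists, and without +dox replicate 1 for the pentose list. Within 100 kb 19 of 41 tested neighbours passed, 8 higher and 11 lower, beside 46.3% of all features tested. The cause was not tested, beyond what fewer libraries or another scaling make by construction.

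Replicate numbers 1 and 3 occur in both groups, but the labels do not say that they pair libraries. Deviations from the group means correlated at -0.011 for replicate 1 and -0.029 for replicate 3, across genes. With only replicates 1 and 3 in the +dox group, their deviations are equal in size and opposite in sign. These correlations are therefore not separate checks of pairing. With a replicate block, in which -dox replicate 2 has no counterpart, 3856 features changed, ENO1 came to 1.18, LDHA to 0.99, GAPDH to 0.73 and PGAM1 to 0.60, and among the other named genes GPR157 lost its call (adjusted p = 0.0914). The promoter and protein comparisons that were planned were not run. Depth does not limit the 4 genes, at 10137 counts or more per library. It limits other genes, among them HK3, ENO2, ENO4, EGLN3 and FBP2, at 1 to 103 counts. CA12, PRPS2, GPR157, G6PC2, CNP1 and XM_417596.3 lie within the same range of counts.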
